A study of Rattus norvegicus with 12 samples.

Results

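The interferon regulatory factor genes Irf1, Irf2, Irf3, Irf5, Irf7, Irf8 and Irf9 were taken from the count table by their symbols, 7 of its 34034 gene symbols. The table holds bulk RNA-seq of INS-1E, a wild-type rat insulinoma line that secretes insulin and stands in for the pancreatic β-cell, with 3 libraries in each of 4 groups. One group was untreated. Cells called IL-1βlow had received IL-1β at 10 pg/ml for 72 h, topped up every 24 h without a change of medium. The CYT group had received IL-1β at 100 pg/ml together with IFN-γ at 5 ng/ml for 16 h, and the IL-1βlow + CYT group had received the 72 h of low IL-1β, a change of medium and then the same 16 h challenge. All groups were one tumor line in culture, not primary islets, and nothing in the labels says whether untreated cells had their medium renewed.

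Interferon regulatory factors share a DNA-binding domain that recognizes repeats of the GAAA motif in the control regions of interferon-responsive genes. Irf1 is a classical early target of IFN-γ, and Irf2 binds the same DNA elements and mostly opposes it. Irf9 is the DNA-binding subunit of ISGF3, a complex that carries type I interferon signals, Irf3, Irf5 and Irf7 are latent factors that kinases activate downstream of nucleic acid and Toll-like receptor sensors, and Irf8 acts mainly in myeloid and B cells. In β-cells exposed to inflammatory cytokines, this pathway is known for raising antigen presentation, chemokines and the inducible nitric oxide synthase.

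The stretches upstream of the transcription start are shown for the genes in which a script found one of 3 motifs that the 2 challenge cytokines are known to act through. RefSeq promoters of the rat assembly GRCr8 were searched on both strands over 250 bases before the start; this assembly is not the mRatBN7.2 build of the counts, and 6 of the 7 genes were matched, all but Irf2. The IRF core (AANNGAAA) was present in 23.3% of all 33469 promoters, the IFN-γ-activated site or GAS (TTCNNNGAA), in 7.67%, and the NF-κB consensus of 10 bases in 3.54%. Capitals mark the matches, and each sequence reads 5′ to 3′ in the direction of its gene. The Irf1 stretch lies at chr10:38417781-38417891 on the plus strand and holds a GAS and, nearer the start, an NF-κB match. The Irf7 stretch lies at chr1:205800052-205800104 on the minus strand and holds 2 IRF cores, both read on the opposite strand. The Irf9 stretch, at chr15:33065725-33065784 on the plus strand, holds a GAS and an IRF core. The Irf8 stretch, at chr19:65699092-65699143 on the plus strand, holds 2 GAS matches. The Irf3 stretch, at chr1:104616564-104616600 on the plus strand, holds an IRF core that overlaps an NF-κB match on the opposite strand.
Irf1: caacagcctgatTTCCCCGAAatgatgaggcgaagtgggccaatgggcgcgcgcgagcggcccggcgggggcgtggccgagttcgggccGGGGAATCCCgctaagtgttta
Irf7: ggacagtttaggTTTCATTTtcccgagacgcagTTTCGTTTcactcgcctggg
Irf9: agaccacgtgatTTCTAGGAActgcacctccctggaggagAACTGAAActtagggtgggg
Irf8: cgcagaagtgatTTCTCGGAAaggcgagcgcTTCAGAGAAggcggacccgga
Irf3: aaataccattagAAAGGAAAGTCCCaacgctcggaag
None of the 3 motifs was found in the 250 bases before Irf5, which says only that these letters are not in that window. A match is a description of the sequence and was not tied to any count.

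Expression is given as CPM, the counts relative to library size, scaled by TMM, a factor that corrects for differences in library composition. Total counts ran from 15812640 to 20246806 per library, and 14324 genes exceeded 1 CPM in 2 or more libraries and were tested with edgeR's quasi-likelihood test. Their p-values were adjusted over all of them by Benjamini-Hochberg. A gene was called where its adjusted p was under 0.01 and its log2 fold change was beyond 1 in either direction, or beyond 0.6 for IL-1βlow against untreated cells. All 6 tested members reached CPM 1 in the untreated libraries themselves, so none entered only through the group in which it was high. INS-1E cells carried the labelled β-cell markers in every library (Ins1 averaged 23994 CPM ± 2894 (SD, n = 3) in untreated cells), while of 12 leukocyte markers Ptprc, Itgam, Cd14 and Tyrobp had no count in any library. The summed leukocyte markers still moved with the challenge, from 1.24 to 1.89 CPM in untreated libraries and 1.03 to 1.47 in IL-1βlow, to 2.40 to 3.64 in CYT and 4.68 to 6.18 in IL-1βlow + CYT, and their part in the results was not tested. Adgre1 alone averaged 1.35 CPM in CYT and 2.79 CPM in IL-1βlow + CYT. The sum of the 8 β-cell markers lay between 42800 and 49656 CPM in untreated libraries, 13934 and 14881 in CYT and 19895 and 25487 in IL-1βlow + CYT, and between 38168 and 44749 in IL-1βlow. The sum of 4 markers of other islet endocrine cells, almost all of it Gcg, the glucagon gene, lay between 187 and 368 CPM in untreated libraries, 157 and 260 in IL-1βlow, 25.4 and 64.9 in CYT and 74.4 and 152 in IL-1βlow + CYT. The part of these markers in the results was not tested. In bulk RNA, fewer cells of one kind and less RNA per cell cannot be told apart.

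CYT raised 5 of the 6 tested interferon regulatory factor genes: Irf1, Irf2, Irf5, Irf7 and Irf9. Irf7 rose most, 12.3-fold, followed by Irf5 at 8.35-fold and Irf1 at 7.77-fold, while Irf2 and Irf9 rose 2.29-fold and 2.14-fold. Irf3 was not called and Irf8 had too few counts to be tested. Over all genes tested, 10.0% were called higher and 11.6% lower in CYT than in untreated cells.

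**Figure D1:**
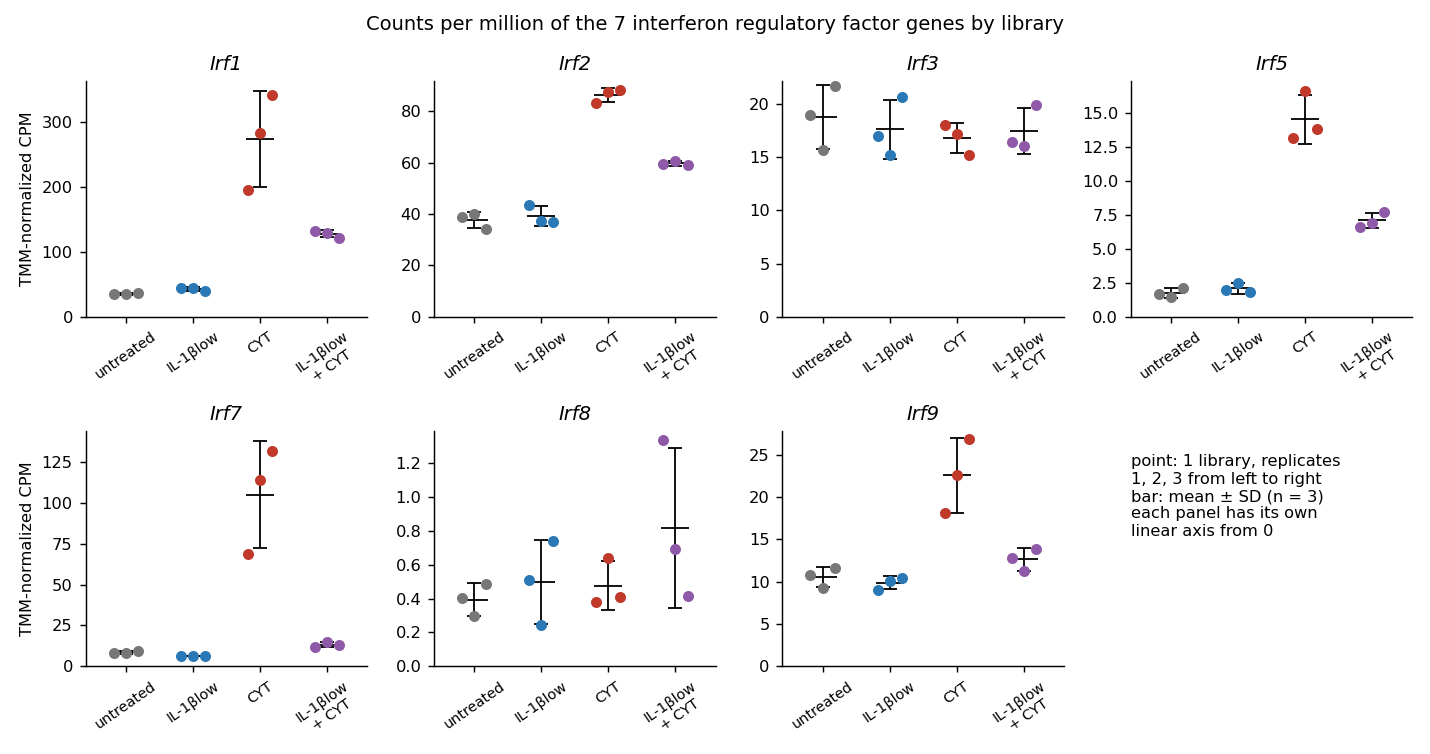
TMM-normalized CPM (linear axes from 0, one scale per gene) of the 7 genes in the 3 libraries of each group, with the mean ± SD as black bars. Irf1, Irf2, Irf5, Irf7 and Irf9 stand highest in the CYT libraries and lower in IL-1βlow + CYT, whereas the groups of Irf3 and Irf8 overlap.

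Irf1, the activator induced by IFN-γ, measured 34.9, 34.1 and 36.4 CPM in the untreated libraries and 195, 283 and 341 CPM in the CYT libraries. The CYT values were spread more widely than any other group of this gene, with replicate 1 the lowest, and the groups did not overlap, as was so for 34.0% of all tested genes in this direction. The log2 fold change was 2.96 ± 0.16 (SE; adjusted p = 1.5e-09), and it was 3.19 without CYT replicate 1 and 2.80 without CYT replicate 3. Irf2, its antagonist at shared sites, measured 38.8, 39.8 and 34.3 CPM in untreated cells and 83.2, 87.5 and 88.2 CPM after CYT. Its CYT libraries lay close together, and the log2 fold change was 1.20 ± 0.09 (SE; adjusted p = 4.6e-08).

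Irf5, a latent factor used by Toll-like receptors through MyD88, was low in untreated cells, at 1.66, 1.42 and 2.13 CPM (24 to 35 counts). After CYT it measured 13.1, 16.6 and 13.9 CPM, and the log2 fold change was 3.06 ± 0.19 (SE; adjusted p = 7.2e-09). Irf7, which amplifies type I interferon responses and is itself interferon-inducible, rose from 8.08, 8.17 and 9.36 CPM to 68.7, 114 and 132 CPM. As for Irf1, CYT replicate 1 was the lowest of its group, yet it lay far above every untreated library. The log2 fold change of Irf7 was 3.62 ± 0.20 (SE; adjusted p = 2.2e-09).

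Irf9, the DNA-binding part of ISGF3, rose from 10.8, 9.29 and 11.6 CPM to 18.1, 22.6 and 26.9 CPM. Its log2 fold change of 1.10 ± 0.15 (SE; adjusted p = 2.5e-05) was just past the minimum, and without CYT replicate 3 it was 0.98 and no longer called. CYT replicate 1 was the lowest of the CYT libraries for all 5 genes that rose. Without it the log2 fold changes were 3.19 for Irf1, 1.26 for Irf2, 3.16 for Irf5, 3.89 for Irf7 and 1.27 for Irf9, and all 5 were called.

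Irf3, the constitutive factor that TBK1 activates, measured 19.0, 15.7 and 21.8 CPM in untreated cells and 18.0, 17.2 and 15.2 CPM after CYT, and the groups overlapped. The log2 fold change was -0.16 with a 95% confidence interval from -0.48 to 0.16 (adjusted p = 0.37). In the GRCr8 annotation Irf3 overlaps Bcl2l12, and Irf2 overlaps Ube2v1-ps3 and 2 uncharacterized genes, so reads in those stretches cannot be told apart where the counting did not use strand. Irf8, the myeloid and B-cell member, had 5 to 8 counts in untreated, 4 to 12 in IL-1βlow, 7 to 11 in CYT and 7 to 22 in IL-1βlow + CYT libraries. A difference of Irf8 was not detectable at this depth. Tested without the filter on low counts, its adjusted p lay between 0.21 and 0.89 over the 6 comparisons, and the widest departure, IL-1βlow + CYT against untreated cells, was 1.07 on the log2 scale with a confidence interval from -0.01 to 2.15.

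None of the 6 tested genes was called in IL-1βlow against untreated cells. The edgeR quasi-likelihood test, DESeq2 and edgeR's exactTest each called 0, where 0.265% of all genes were called higher and 0.168% lower, and 0 reached an unadjusted p under 0.05, where 13.8% of all genes did. Irf1 measured 44.5, 44.6 and 39.3 CPM, above each untreated library, with a log2 fold change of 0.28 and a confidence interval from -0.04 to 0.61 (adjusted p = 0.41). Irf7 measured 6.31, 6.56 and 6.23 CPM, below each untreated library, with a log2 fold change of -0.42 and an interval from -0.88 to 0.03 (adjusted p = 0.39). Such a separation was found for many genes, with 13.0% of all those tested higher and 10.6% lower in every IL-1βlow library than in every untreated one. Irf2, Irf3, Irf5 and Irf9 overlapped between the groups, with log2 fold changes from -0.10 to 0.26.

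Cells that had received IL-1βlow before CYT held less Irf1, Irf5 and Irf7 mRNA than cells given CYT alone. Irf7 was 7.96-fold lower, Irf1 2.14-fold lower and Irf5 2.05-fold lower. Irf2 and Irf9 were 1.44-fold and 1.79-fold lower with adjusted p-values under the threshold but short of the fold change minimum, and Irf3 did not pass. Over all genes 5.92% were called lower and 6.54% higher in this comparison.

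Irf7 measured 11.7, 14.6 and 13.1 CPM in IL-1βlow + CYT, against the 68.7 to 132 CPM of the CYT libraries. The groups lay far apart, and the log2 fold change was -2.99 ± 0.19 (SE; adjusted p = 4.9e-08). Irf1 measured 132, 129 and 121 CPM, below the lowest CYT library at 195 CPM. Its log2 fold change was -1.10 ± 0.15 (SE; adjusted p = 2.9e-05), and without CYT replicate 3 it was -0.93, under the fold change minimum. Irf5 measured 6.63, 6.91 and 7.73 CPM, with a log2 fold change of -1.04 ± 0.17 (SE; adjusted p = 1.4e-04) that was -0.93 and not called without CYT replicate 2. The calls of Irf1 and Irf5 therefore each hung on 1 CYT library for the fold change minimum. The groups of both genes did not overlap, and 27.6% of all tested genes were lower in every IL-1βlow + CYT library than in every CYT one.

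Irf2 measured 59.5, 60.8 and 59.0 CPM in IL-1βlow + CYT, between the untreated and the CYT values, with a log2 fold change against CYT of -0.53 ± 0.09 (SE; adjusted p = 1.9e-04). Irf9 measured 12.8, 11.2 and 13.8 CPM, with a log2 fold change of -0.84 ± 0.15 (SE; adjusted p = 3.8e-04), and it passed the fold change minimum, at -1.01, only when CYT replicate 1 was left out. Irf3 measured 16.4, 16.1 and 20.0 CPM, with a log2 fold change of 0.06 and an interval from -0.27 to 0.38 (adjusted p = 0.78).

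**Figure D2:**
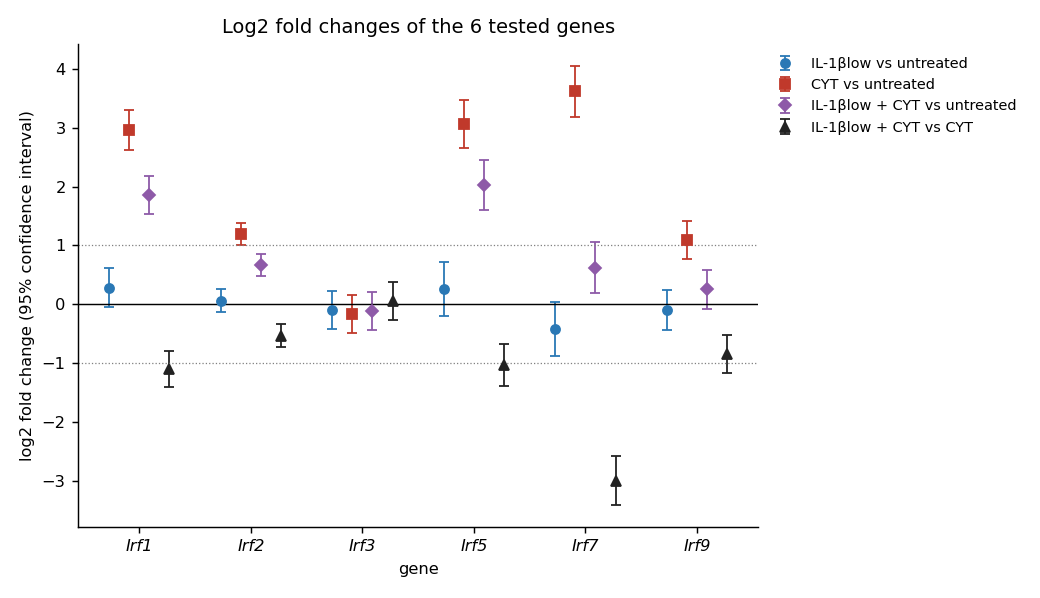
Log2 fold changes with 95% confidence intervals (y axis) of the 6 tested genes (x axis) in 4 comparisons, dotted lines at 1 and -1. The CYT values of Irf1, Irf5 and Irf7 are 2.96, 3.06 and 3.62, and the IL-1βlow + CYT against CYT value of Irf7, -2.99, is the lowest of all.

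Against untreated cells, the same libraries as in the CYT comparison, IL-1βlow + CYT cells still had more Irf1 and Irf5 mRNA. Irf1 was 3.63-fold higher (log2 fold change 1.86 ± 0.15 (SE), adjusted p = 4.5e-07) and Irf5 4.07-fold higher (2.03 ± 0.20, adjusted p = 2.4e-06), where 3.85% of all genes were called higher and 2.14% lower. Irf2 was 1.59-fold higher (adjusted p = 6.7e-05), under the fold change minimum. Irf7 was 1.54-fold higher (adjusted p = 0.038) and Irf9 1.20-fold higher (adjusted p = 0.26), and neither passed. The IL-1βlow + CYT and untreated libraries of Irf9 overlapped, and those of Irf7 did not, where 20.2% of all tested genes were higher in every IL-1βlow + CYT library.

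Against cells that had received IL-1βlow alone, the challenge raised Irf1 2.98-fold (adjusted p = 3.5e-06), Irf5 3.40-fold (adjusted p = 1.2e-05) and Irf7 2.07-fold (adjusted p = 0.0027), with 2.92% of all genes called higher and 0.963% lower. The call of Irf7 was lost without any one of the 3 IL-1βlow libraries (log2 fold changes 1.02 to 1.06, adjusted p = 0.012 to 0.017). There its fold change still passed the minimum, and only the adjusted p missed its threshold. It was also lost without IL-1βlow + CYT replicate 2 (0.96, adjusted p = 0.015). Irf2 was 1.52-fold higher (adjusted p = 2.4e-04) and Irf9 1.28-fold higher (adjusted p = 0.18). The 4 groups of Irf1 thus ran from untreated and IL-1βlow, which did not differ past the test, through IL-1βlow + CYT to CYT, and Irf5 and Irf2 had the same order of group means. For Irf7 and Irf9 the order was IL-1βlow, untreated, IL-1βlow + CYT and CYT, and the first 2 did not differ past the test.

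The difference between the 2 responses was tested as the interaction, the log2 effect of CYT after IL-1βlow minus its effect without it. It was -2.57 ± 0.28 (SE) for Irf7 (adjusted p = 1.8e-05), -1.38 ± 0.21 for Irf1 (adjusted p = 2.2e-04) and -1.30 ± 0.27 for Irf5 (adjusted p = 0.0022), and these 3 genes were called. Irf2, at -0.59 ± 0.13 (adjusted p = 0.0025), missed the fold change minimum, Irf9, at -0.74 ± 0.22 (adjusted p = 0.016), missed the adjusted p as well, and Irf3, at 0.15 ± 0.21 (adjusted p = 0.61), did not pass. The adjusted p of Irf9 depended on the fit, at 0.0057 by DESeq2, 0.0042 with the replicate number as a block and 0.012 with RLE scaling. In each of these fits Irf9 missed the fold change minimum. Over all genes 5.48% were called with a higher and 5.20% with a lower response after IL-1βlow.

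How much of the CYT change remained was described for each member that CYT raised. Each IL-1βlow + CYT library was placed on the log2 scale between the mean of the untreated libraries, at 0%, and the mean of the CYT libraries, at 100%. Irf5 kept 66.5% ± 3.72 (SD, n = 3) of the change, Irf1 63.7% ± 2.16 and Irf2 55.8% ± 1.83. Irf9 kept 24.0% ± 14.1 and Irf7 17.4% ± 4.44. With single libraries left out of their group means, the value of Irf9 ran from 17.2% (without untreated replicate 2) to 31.6% (without IL-1βlow + CYT replicate 2), and refitted without untreated replicate 2 its log2 fold changes against untreated cells were 1.03 in CYT and 0.16 in IL-1βlow + CYT. The 3 libraries of Irf7 (13.0% to 21.8%) and of Irf9 (8.89% to 36.7%) all lay below those of the other 3 genes, the lowest of which was 54.4%. Both ends of the scale are shared by the libraries, the errors hold only the spread of the IL-1βlow + CYT libraries, and the order of the genes was not tested. The scale starts at untreated cells, whereas IL-1βlow + CYT cells had first received IL-1βlow. Irf7 averaged 6.37 CPM in IL-1βlow and 8.54 in untreated cells, and Irf1 42.8 and 35.1. Against IL-1βlow, the challenge's log2 fold changes were 1.05 for Irf7, 0.35 for Irf9, 1.58 for Irf1, 1.76 for Irf5 and 0.61 for Irf2. Those of CYT against untreated cells were 3.62, 1.10, 2.96, 3.06 and 1.20.

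**Figure D3:**
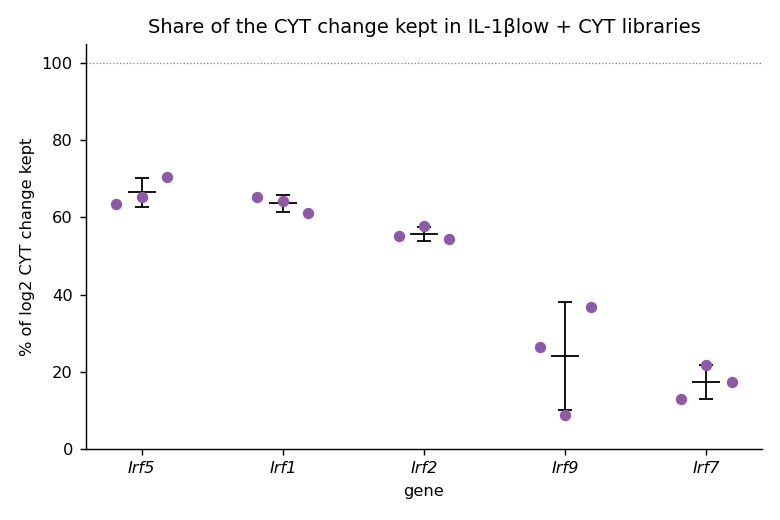
Percent of the log2 change from untreated to CYT (y axis) that each of the 3 IL-1βlow + CYT libraries retained, by gene, with the mean ± SD as black bars and 100% as the dotted line. Irf5, Irf1 and Irf2 lie between 54.4% and 70.6%, and Irf9 and Irf7 between 8.89% and 36.7%.

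Since Irf1 and Irf2 compete for the same DNA elements, the change of their balance was followed as the ratio of Irf1 counts to Irf2 counts, which needs no scaling between libraries. Only the change of the ratio between groups can be read, since the transcripts' lengths were not used. The ratio was 0.901, 0.856 and 1.06 in untreated libraries and 1.02, 1.20 and 1.07 in IL-1βlow. It was 2.34, 3.23 and 3.87 in CYT and 2.22, 2.13 and 2.06 in IL-1βlow + CYT, so that the last group lay below every CYT library and above every untreated one. The ratio rose 3.29-fold with CYT (log2 difference 1.72) and was 1.44-fold lower in IL-1βlow + CYT than in CYT (log2 difference -0.53). Exact two-sided permutation tests gave p = 0.1 for each. This is the smallest value that 3 libraries against 3 can give, so neither can pass 0.05. The tests did not pair libraries by replicate number. For replicate 1 the ratio was 2.34 in CYT and 2.22 in IL-1βlow + CYT. It was 3.23 and 2.13 for replicate 2, and 3.87 and 2.06 for replicate 3. The log2 difference between IL-1βlow + CYT and CYT ranged from -0.73 without CYT replicate 1 to -0.37 without CYT replicate 3.

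**Figure D4:**
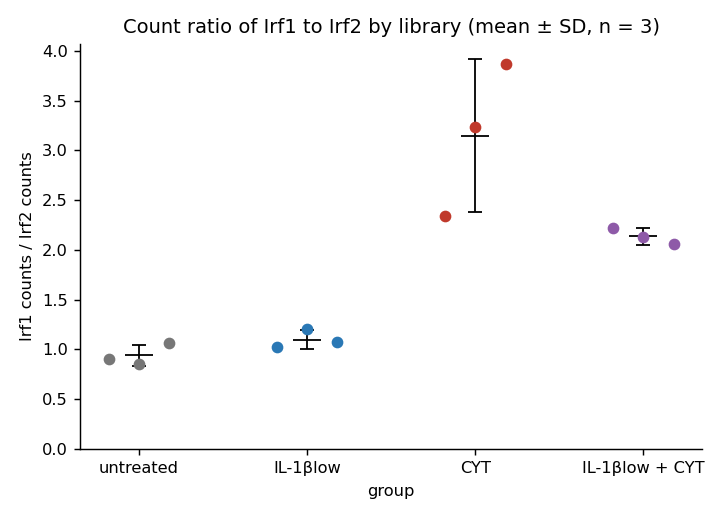
Ratio of Irf1 to Irf2 counts (linear y axis from 0) in the 3 libraries of each group, with the mean ± SD as black bars. The ratio averages 0.939 in untreated and 3.15 in CYT libraries, and the IL-1βlow + CYT libraries sit together at 2.06 to 2.22.

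Irf9 works with STAT2, and of the 14 receptors, Janus kinases and STAT genes counted here Stat2 was called higher after CYT and 0 were lower. Over all genes 10.0% were called higher and 11.6% lower. Stat2 rose from 45.0 CPM ± 1.49 to 141 CPM ± 16.8 (SD, n = 3, log2 fold change 1.64, adjusted p = 6.2e-09). In IL-1βlow + CYT both Stat2 and Irf9 were below CYT without reaching the fold change minimum, Stat2 at 74.5 CPM ± 5.78 (log2 fold change -0.92, adjusted p = 4.4e-06) and Irf9 as above. Tyk2, a Janus kinase of the type I receptor, came next after Stat2 with CYT, at 0.72 (adjusted p = 2.4e-05), under the minimum. The 2 chains of the IFN-γ receptor did not pass the fold change minimum with CYT, Ifngr1 at 0.71 (adjusted p = 1.9e-05) and Ifngr2 at 0.56 (adjusted p = 9.4e-05). Ifnlr1, the interferon-lambda receptor chain and the lowest of the list, had a log2 fold change of -0.87 (adjusted p = 2.2e-04). Over the 14 genes the median log2 fold change with CYT was 0.33, beside -0.04 over all genes. In IL-1βlow + CYT against CYT, 0 of them were called by edgeR's quasi-likelihood test, DESeq2 or exactTest. The first of these tests called 5.92% of all genes lower there and 6.54% higher. At an unadjusted p under 0.05 there were 6 of the 14, where 56.7% of all genes were.

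Interferon genes themselves had 0 to 6 counts per library. Of 8 ligand genes, none passed the filter, and Ifng and Ifna4 had no count in any library. Ifnl3, an interferon-lambda gene, had 3, 6 and 5 counts in the CYT libraries and 0 in the other 9. Its CYT mean was 1.44-fold that of 3 counts per untreated library. The counting error of the CYT counts was left out, and a difference of Ifnl3 was not tested. Ifnl1 had 0, 1 and 5 counts in the CYT libraries, 1 in an IL-1βlow library and 0 in the others. A count of 0 in a library allows up to 3 counts.

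Among the inhibitors that limit interferon signals, 1 of 12 tested genes was called higher and 1 lower with CYT (median 0.33). Over all genes 10.0% were called higher and 11.6% lower, so this list did not stand out. Usp18, the ISG15 protease that blocks the type I receptor, rose from 5.38 CPM ± 0.645 to 42.2 CPM ± 13.5 (SD, n = 3; log2 fold change 2.97, adjusted p = 6.4e-08) and was 8.48 CPM ± 1.20 in IL-1βlow + CYT (-2.31 against CYT, adjusted p = 1.3e-06). Pias3, a STAT inhibitor, came next at 0.88 (adjusted p = 1.0e-05), under the minimum. Socs2 fell from 168 CPM ± 7.06 to 66.6 CPM ± 4.64 (log2 fold change -1.34, adjusted p = 2.3e-08) and was 107 CPM ± 7.81 in IL-1βlow + CYT (0.68 against CYT, adjusted p = 3.9e-05).

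Upstream of Irf3, Irf5 and Irf7, 14 of 18 listed sensors, adaptors and kinases were tested. After CYT 4 were called higher (10.0% over all genes) and 0 lower (11.6%), with a median of 0.16. At an unadjusted p under 0.05 there were 10, where 65.9% of all genes were. Of the 13 that passed the filter in untreated libraries alone, 3 were called higher. The other, Ikbke, a kinase of IRF3 and IRF7, had 0 to 4 counts in untreated and 197 to 284 counts in CYT libraries. Its level in IL-1βlow + CYT, 11.7 CPM ± 1.40, was close to the 13.4 CPM ± 1.98 of CYT (SD, n = 3), with a log2 fold change of -0.20 and an interval from -0.70 to 0.30 (adjusted p = 0.49). Sting1, the adaptor of the DNA sensor cGAS, rose from 2.62 CPM ± 0.31 to 50.9 CPM ± 10.3 (4.28, adjusted p = 1.8e-09) and was 10.4 CPM ± 1.83 in IL-1βlow + CYT (-2.29 against CYT, adjusted p = 7.3e-07). The RNA sensors Dhx58 (1.36, adjusted p = 2.4e-08) and Ifih1 (1.28, adjusted p = 0.0017) were the other two called higher. Myd88, the adaptor next to Irf5, had the lowest value, -0.79 (adjusted p = 2.7e-04). Ikbke and Sting1 were the 2 genes of this list still called higher in IL-1βlow + CYT than in untreated cells, and Sting1 alone among the 13 that passed the filter in untreated libraries.

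Of 12 tested partners of these factors on DNA, 6 were called higher (10.0% over all genes) and 1 lower (11.6%) with CYT. Their median was 1.35. Batf and Batf2, which pair with IRF proteins on composite elements, had at most 3 counts in any untreated library and were at least 6.29-fold and 14.5-fold higher in CYT, a lower bound set against 3 counts per library. Batf3, Spib, Nmi and Nfkb1 were the other members called higher, with log2 fold changes of 2.01, 3.54, 1.81 and 1.95. Of the 6, 3 did not reach the filter in untreated libraries alone. Spib had no count in any IL-1βlow library, and its untreated mean was 0.69-fold that of 3 counts per IL-1βlow library. Its 3.54 is therefore a fitted value near the floor. Ets1 fell from 6.37 CPM ± 0.60 to 2.82 CPM ± 0.37 (SD, n = 3; -1.18, adjusted p = 4.2e-05). In IL-1βlow + CYT, Batf2, Batf3, Spib and Nmi were called lower than in CYT, where 5.92% of all genes were. Nfkb1 was still called above untreated cells by edgeR's quasi-likelihood test (1.07, adjusted p = 1.2e-06). DESeq2 and exactTest called Nfkb1 and Batf above untreated cells. Batf had only 1 to 13 counts (0.28 CPM ± 0.32, SD, n = 3) in IL-1βlow + CYT and none in untreated libraries.

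Irf4, another member of the family, and 3 proteins that bind IRF2 were followed beside the members. Irf4, known from lymphocytes, measured 1.60, 1.72 and 1.88 CPM in untreated, 4.13, 7.75 and 9.20 CPM in CYT and 0.669, 0.597 and 1.66 CPM in IL-1βlow + CYT libraries. It was called higher with CYT (log2 fold change 2.02, adjusted p = 1.6e-04) and lower in IL-1βlow + CYT than in CYT (-2.86, adjusted p = 2.3e-05). Over all genes 10.0% were called higher with CYT, and 5.92% lower in IL-1βlow + CYT than in CYT. In IL-1βlow alone Irf4 measured 0.820, 0.675 and 0.494 CPM (8 to 16 counts), below every untreated library, with a log2 fold change of -1.36 (adjusted p = 0.17). Of all tested genes, 10.6% were lower in every IL-1βlow library than in every untreated one. Irf2bp2, an IRF2 corepressor, rose from 39.0 CPM ± 5.17 to 139 CPM ± 16.0 (SD, n = 3; 1.84, adjusted p = 5.2e-09) and was 52.0 CPM ± 2.47 in IL-1βlow + CYT (-1.42 against CYT, adjusted p = 2.3e-07). Irf2bpl had a log2 fold change of 0.13 with CYT (adjusted p = 0.32) and 0.36 in IL-1βlow + CYT against CYT (adjusted p = 0.011). Irf2bp1 had 0.26 with CYT (adjusted p = 0.037), under the minimum.

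Target genes were read beside their factors in 2 lists. Of 24 genes listed as targets of ISGF3 and of IRF3 or IRF7, 20 were tested. With CYT 17 were called higher (10.0% over all genes) and 0 lower (11.6%). The median log2 fold change was 3.00, beside -0.04 over all genes. Of the 14 that passed the filter in untreated libraries alone, 11 were called higher. In IL-1βlow + CYT 11 of the 20 were called lower than in CYT (median -1.20) and 9 higher than in untreated cells (median 1.72), 6 of them among the 14. The count of 9 depended on the test: DESeq2 called 13 of the 20 higher than in untreated cells and exactTest 12. The count of 11 was the same by all 3 tests. With genes at 3 or fewer untreated counts set to their lower bound, the medians against untreated cells were 2.72 for CYT and 1.47 for IL-1βlow + CYT.

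The antiviral GTPases led this list. Mx1 rose from 0.29 CPM ± 0.21 to 100 CPM ± 48.3 (SD, n = 3; log2 fold change 8.38, adjusted p = 9.4e-09), and Mx2 from 0.87 CPM ± 0.25 to 281 CPM ± 144 (8.33, adjusted p = 2.5e-09). They stood at 10.8 CPM ± 4.18 and 21.4 CPM ± 7.66 in IL-1βlow + CYT, with log2 fold changes against CYT of -3.21 (adjusted p = 4.4e-06) and -3.72 (adjusted p = 7.8e-07). Eif2ak2, the kinase PKR, was the lowest, at -0.24 with CYT (adjusted p = 0.34).

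Of 30 genes listed as IRF1 targets, 27 were tested. With CYT 24 were called higher (10.0% over all genes) and 0 lower (11.6%), with a median of 3.12. Of the 19 that passed the filter in untreated libraries alone, 16 were called higher. In IL-1βlow + CYT, 12 of the 27 were called lower than in CYT (median -0.80), and 23 were called higher than in untreated cells (median 2.16), 16 of them among the 19. DESeq2 and exactTest also called 12 lower and 23 higher. With bounds in place of the fitted values, the medians against untreated cells were 3.03 and 1.84. The shares called lower under IL-1βlow + CYT than under CYT were 11 of 20 and 12 of 27 for the 2 lists, and this difference between lists was not tested. Over all genes 5.92% were called lower than in CYT and 3.85% higher than in untreated cells. Only 14 of the 20 and 19 of the 27 passed the filter in untreated libraries alone. The others could pass through the challenged groups in which they were high, which favors a fall from CYT. The shares lower than CYT and the medians of -1.20 and -0.80 were not recomputed without them.

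Nos2, the inducible nitric oxide synthase, had at most 2 counts in any untreated library and 7590 to 13469 in CYT libraries, at least 3208-fold higher. It was at 48.8 CPM ± 13.7 in IL-1βlow + CYT against 569 CPM ± 142 in CYT (SD, n = 3; log2 fold change -3.54, adjusted p = 2.8e-08). Gbp1, a guanylate-binding GTPase, was at least 18.3-fold higher in CYT than in untreated cells, where it had no count, and its log2 fold change in IL-1βlow + CYT against CYT was -2.34 (adjusted p = 0.0042). Cd274, which encodes PD-L1, was the lowest of the list with CYT, at -0.02 (adjusted p = 0.87), and in IL-1βlow + CYT it was 0.59 above CYT (adjusted p = 4.7e-04), under the minimum. Among genes of antigen presentation, picked after their values were seen, the log2 fold changes against untreated cells were 2.81 in CYT and 2.32 in IL-1βlow + CYT for B2m, which encodes β2-microglobulin, and 3.59 and 2.57 for Psmb8, an immunoproteasome subunit.

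**Figure D5:**
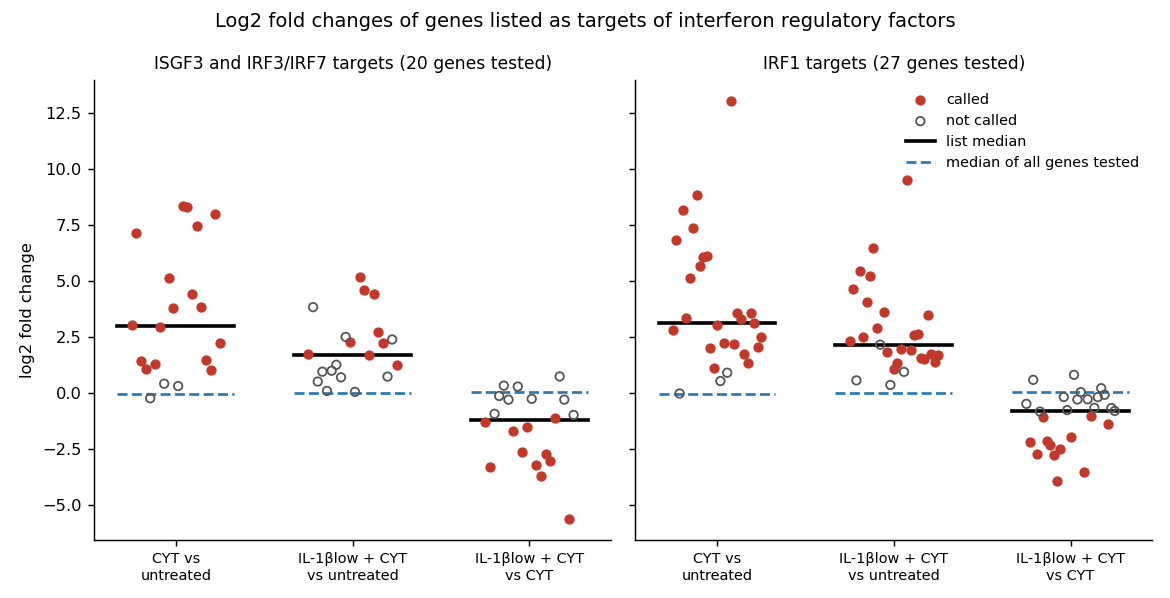
Log2 fold changes (y axis) of the tested genes of both target lists in 3 comparisons, filled where called, with the list median as a black line and the median of all tested genes as a dashed line. The medians are 3.00 and 3.12 in CYT against untreated cells and -1.20 and -0.80 in IL-1βlow + CYT against CYT.

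In IL-1βlow against untreated cells, 0 genes of these lists were called by edgeR's quasi-likelihood test. At an unadjusted p under 0.05, reached by 13.8% of all genes in either direction, there were 8 of 27 IRF1 targets, 7 higher and 1 lower. There were also 1 of 20 ISGF3, IRF3 and IRF7 targets, lower, and 3 of 12 inhibitors, all lower. Of the 12 partners there were 2, 1 higher and 1 lower. Of the 4 other family genes and IRF2-binding proteins there was 1, lower, and of the receptors and sensors 0. DESeq2 called 3 IRF1 targets there, B2m and Serping1 higher and Cxcl10 lower, of which exactTest called Cxcl10. Genes named beside a count of 5 or fewer were picked after their values were seen.

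Over the 12 libraries the log2 CPM of the 5 genes that rose with CYT followed each other, with Pearson's r from 0.878 to 0.985, the highest for Irf1 with Irf5 and 0.967 for Irf7 with Irf9, and Irf3 stood at -0.155 to -0.342 with each of them. These values describe points that share 4 groups and hold the differences between the groups. The genes most like each member by the same measure were Icam1, Gdpd5 and RT1-CE15 for Irf1 (r = 0.996 to 0.994), Stk32a, Lgals9 and Ebi3 for Irf2 (0.992 to 0.991), and Plvap, RT1-CE15 and Epha2 for Irf5 (0.996 to 0.991). They were Patl1, Lgmn and Klf3 for Irf7 (0.995 to 0.993) and Ppip5k1, Akap2 and Hmgxb4 for Irf9 (0.985 to 0.983). For Irf3 the closest, Ccdc77, Ica1l and Gpatch11, reached 0.810 to 0.798.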

How the data were processed

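INS-1E poly(A) RNA was sequenced from TruSeq libraries. The authors used FastQC and rfastp on the reads, Rsubread to align to mRatBN7.2, and featureCounts to count per gene; the strand setting is not given in the sources used here. The deposited table holds raw, whole-number counts, and all 12 columns were matched to labelled samples. Rn45s took 6.89% to 11.1% of counts. Libraries of a group are labelled biological replicates, without saying whether cultures were separate, so p-values measure the spread between these libraries; within a group, chi-square per degree of freedom between libraries was 7.11 to 27.5.

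In R 4.3.3 with edgeR 4.0.16, genes over 1 CPM in 2 or more libraries were TMM-scaled, and all 12 libraries entered one quasi-likelihood fit. Thresholds follow the study, whose own test was exactTest. Standard errors derive from the log2 fold change and F. Adjusted p-values are Benjamini-Hochberg over 14324 genes. Where a group had 3 or fewer counts in each library, folds against it are lower bounds. They cover the counting error of that group only, not that of the higher group. All 7 members were named in every comparison, with the 2 largest and the 1 smallest CYT log2 fold change of each list and the 3 genes most correlated with each tested member. The members and lists were chosen with earlier results of these data known. Some genes of the lists are not reported here and were left out of the lists' counts and medians.

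Replicate numbers come from the labels. Deviations from the group means correlated between same-numbered libraries by 0.116 to 0.475 for IL-1βlow + CYT with CYT and by 0.179 to 0.520 for IL-1βlow + CYT with IL-1βlow. In each of these 2 comparisons, 5 of 6 libraries correlated best with their own number, so the numbers may mark pairs there. The p-values, standard errors and intervals given nevertheless come from the fit without pairing. The fit with the replicate number as a block changed no call of a member. Alternatives were RLE scaling, DESeq2 1.42.0, exactTest, no filter, a minimum of 10 counts throughout, a fit of the compared groups alone, the block, a looser call (adjusted p under 0.05, any fold) and leaving out each library. Scripts were tested on simulated counts.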

Additional observations from a re-analysis of the deposited data

Results flagged for a closer look

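The CYT response of 3 interferon regulatory factor genes differed between cells with and without the earlier IL-1βlow, by a test of the difference itself. The log2 effect of CYT after IL-1βlow minus the effect without it was -2.57 for Irf7, -1.38 for Irf1 and -1.30 for Irf5 (edgeR's quasi-likelihood test, adjusted p = 1.8e-05, 2.2e-04 and 0.0022). Leaving out any 1 of the 12 libraries moved these values to between -2.83 and -2.40, -1.60 and -1.21, and -1.47 and -1.18.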

How the results depend on the processing

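Each member's call in the 6 comparisons held under RLE scaling, DESeq2, exactTest (5 comparisons), both other filters, the fit of the compared groups alone (5 comparisons) and the replicate block, and the RLE scaling moved the median of all genes by at most 0.033 on the log2 scale. With an adjusted p under 0.05 and no fold minimum, 5 members in place of 3 passed in IL-1βlow + CYT against CYT (Irf2 and Irf9 added), 4 in place of 2 in IL-1βlow + CYT against untreated cells (Irf2 and Irf7), 4 in place of 3 against IL-1βlow (Irf2) and 5 in place of 3 in the interaction (Irf2 and Irf9). Over all genes this rule called 193 in IL-1βlow against untreated, 8926 in CYT against untreated, 7267 in IL-1βlow + CYT against CYT, 3124 in IL-1βlow + CYT against untreated, 1855 in IL-1βlow + CYT against IL-1βlow and 5337 in the interaction. The count of all genes called in IL-1βlow against untreated cells, 62, was 139 by DESeq2, 138 by exactTest and 229 without a filter. It was 141 with the replicate block, where same-numbered libraries correlated by -0.188 to 0.168 and 2 of 6 libraries correlated best with their own number, so the samples share only a number there, and ranged from 16 to 87 when single libraries were left out, falling to 16 to 29 without any 1 untreated library or without IL-1βlow replicate 1 or 2; the cause was not tested. Values near 0 that changed sign when single libraries were left out were Irf2 in IL-1βlow against untreated cells (-0.028 to 0.10) and Irf3 in the same comparison (-0.22 to 0.025), in IL-1βlow + CYT against CYT (-0.050 to 0.11), against untreated cells (-0.24 to 0.012) and against IL-1βlow (-0.12 to 0.11), the last also without a filter (0.0087). None of these was called. With single libraries left out, the members called ran from 4 to 5 in CYT against untreated cells, 2 to 4 in IL-1βlow + CYT against CYT and 2 to 3 against IL-1βlow, and stayed at 2 against untreated cells and at 3 in the interaction. The share of the CYT change kept with single libraries left out, an alternative chosen after seeing the data, ran from 17.2% to 31.6% for Irf9. Depth limits Irf8, with 4 to 22 counts per library, and the targets with 3 or fewer counts in untreated cells, while 3 libraries per group limit the permutation tests.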
